A study of Homo sapiens with 7 samples.

Results

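Genes of the EGFR family and their ligands were followed in the RNA-Seq data of esophageal squamous cell carcinoma cells after silencing of TP63, SOX2 or CCAT1. The set was fixed by name and holds 10 genes, of 56236 genes to which a deposited transcript could be assigned. It has 3 receptors (EGFR, ERBB2 and ERBB3) and 7 ligands (AREG, EREG, HBEGF, TGFA, BTC, EPGN and EGF). TE5 and KYSE140 are established lines of this carcinoma, and each had received a Non-targetting scramble sh RNA or an shRNA that knocks down TP63 or SOX2 from a lentiviral vector. TE5 cells had also received an shRNA against CCAT1, a long non-coding RNA. The study asked how TP63 and SOX2, master transcription factors of squamous cells, act on super-enhancers, which are dense clusters of enhancers, and CCAT1 and EGFR are among the genes it followed. There was 1 library for each shRNA in each line (4 of TE5 and 3 of KYSE140) and 1 shRNA for each target, so differences inside 1 line stand without any replicate.

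EGFR, ERBB2 and ERBB3 are receptor tyrosine kinases of the cell surface that signal as pairs. EGFR binds all of the 7 ligands, ERBB2 has no known ligand and serves as the preferred partner of the others, and ERBB3 has a weak kinase and couples strongly to PI3K. The ligands are made as precursors anchored in the membrane, and proteases such as ADAM17 and ADAM10 cut them free. In squamous epithelium the pathway drives growth of the basal layer, and EGFR is often abundant in squamous carcinoma.

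Positions below are hg19 coordinates from the GENCODE annotation. EGFR lies at chr7:55086710-55279321 on the plus strand, ERBB2 at chr17:37844167-37886679 on the plus strand and ERBB3 at chr12:56470583-56497289 on the plus strand. A cluster on chromosome 4 holds 4 of the ligands, EPGN at chr4:75174187-75182506, EREG at chr4:75230862-75254466, AREG at chr4:75310853-75320722 and BTC at chr4:75669969-75719733, with BTC on the minus strand and the others on the plus strand. EGF lies farther along the same chromosome, at chr4:110834039-110934922 on the plus strand. HBEGF lies at chr5:139712428-139726188 and TGFA at chr2:70674416-70781325, both on the minus strand.

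The 250 bases before the start site are shown for EGFR, the member with the most counts, and for EREG, BTC and EGF, 3 of the 4 ligands that were over 2-fold higher in TE5 shTP63 (the other, EPGN, rests on few counts). They were read from RefSeq windows of the GRCh38.p14 build, a later build than that of the count files, in which 9 of the 10 members were matched and ERBB3 was not. Each run is written 5′ to 3′ on the strand of the gene. Capitals mark a match, on either strand, to the AP-1 motif TGANTCA or the SOX motif ACAANG, which do not overlap here. AP-1 is a dimer of FOS and JUN proteins that acts below EGFR signalling, and the SOX motif is a core bound by factors such as SOX2.
EGFR, chr7:55018767-55019016, plus strand: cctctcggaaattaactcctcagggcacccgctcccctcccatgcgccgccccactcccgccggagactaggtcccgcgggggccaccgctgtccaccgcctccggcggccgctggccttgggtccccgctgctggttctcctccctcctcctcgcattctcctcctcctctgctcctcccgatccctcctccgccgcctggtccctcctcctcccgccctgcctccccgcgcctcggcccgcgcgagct
EREG, chr4:74364895-74365144, plus strand: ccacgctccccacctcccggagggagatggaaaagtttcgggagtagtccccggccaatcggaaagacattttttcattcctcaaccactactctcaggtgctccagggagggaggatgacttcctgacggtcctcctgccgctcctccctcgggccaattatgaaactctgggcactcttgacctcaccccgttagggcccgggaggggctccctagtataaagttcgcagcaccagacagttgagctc
BTC, chr4:74794524-74794773, minus strand: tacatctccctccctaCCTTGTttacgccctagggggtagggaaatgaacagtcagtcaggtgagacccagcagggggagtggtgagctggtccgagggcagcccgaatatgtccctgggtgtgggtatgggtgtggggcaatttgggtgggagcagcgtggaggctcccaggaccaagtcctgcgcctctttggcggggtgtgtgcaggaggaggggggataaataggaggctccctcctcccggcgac
EGF, chr4:109912633-109912882, plus strand: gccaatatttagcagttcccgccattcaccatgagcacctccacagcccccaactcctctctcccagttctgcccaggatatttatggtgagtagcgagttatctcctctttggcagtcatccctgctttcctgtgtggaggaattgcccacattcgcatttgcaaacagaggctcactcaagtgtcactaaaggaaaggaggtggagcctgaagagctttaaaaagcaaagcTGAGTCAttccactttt
The window of BTC holds 1 SOX match, at bases -234 to -229 from the start, and that of EGF holds 1 AP-1 match, at bases -17 to -11. The windows of EGFR and EREG shown here hold neither, while a second RefSeq window of EGFR, not shown, holds 2 AP-1 matches. AP-1 and SOX matches were each in 3 of the 11 windows of members. Among all 35116 windows of this length, 30.9% hold the SOX motif and 6.57% the AP-1 motif. The paired core of the p53-family response element, which TP63 binds, was also searched on both strands and is in 4.02% of all windows and in 0 of the 11 windows of members. These matches describe letters only.

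The estimated counts summed to between 68532611 and 98036494 per library, so counting error is small for the receptors and large for EPGN. TP63 and SOX2 were read first as a check of the labels. TP63 had 26590 normalized counts in TE5 scramble, 6827 in TE5 shTP63, 48583 in KYSE140 scramble and 12581 in KYSE140 shTP63. That is 25.7% of scramble in TE5 and 25.9% in KYSE140 cells. SOX2 had 11899 normalized counts in TE5 scramble and 4719 in TE5 shSOX2, or 39.7% of scramble. In KYSE140 it had 28940 in scramble and 22138 in shSOX2, or 76.5%. SOX2 was also lower in TE5 shTP63, at 66.7% of scramble, but not in KYSE140 shTP63, at 103%. CCAT1 was not analysed here, so the TE5 shCCAT1 library is known by its label only. Markers of stratified squamous epithelium reached 1 TPM (a level scaled for transcript length and library total) for 9 of 10 genes in each TE5 library and 10 of 10 in each KYSE140 library. Their summed TPM lay between 1855 and 2622 in TE5 and between 13767 and 32275 in KYSE140 cells, with none at 0. Simple columnar markers summed to between 1861 and 3348 TPM over the 7 libraries. Fibroblast, endothelial and leukocyte markers summed to at most 44.9, 9.31 and 1.72 TPM. By the names of the deposited files, the scramble library of each line ran in a lane apart from its knockdown libraries, for TE5 on a separate flow cell as well. Knockdown and lane therefore cannot be told apart in any comparison with scramble. In a bulk library, fewer cells of a type and less RNA per cell cannot be told apart either.

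EGFR was the highest member in every library by TPM, a scale on which genes can be compared. It had 106 TPM in TE5 scramble, 86.9 in shTP63, 104 in shSOX2 and 77.4 in shCCAT1. In KYSE140 it had 183 TPM in scramble, 150 in shTP63 and 239 in shSOX2. The lowest KYSE140 value is above the highest TE5 value. ERBB2 followed in TE5 cells, between 62.5 and 71.7 TPM, without overlap with its neighbours in the order. In KYSE140 cells ERBB2 (42.7 to 53.5 TPM) and ERBB3 (33.5 to 58.8 TPM) overlapped. ERBB3 in TE5 lay between 18.0 and 23.4 TPM. The receptor sum lay between 165 and 188 TPM in TE5 and between 259 and 322 TPM in KYSE140 cells, and EGFR made up 46.9% to 56.3% of it in TE5 and 57.2% to 74.1% in KYSE140.

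Ligand levels ran the other way between the lines. The sum of the 7 ligands lay between 79.4 and 134 TPM in TE5 and between 29.3 and 37.1 TPM in KYSE140 cells. TGFA was the highest ligand in TE5, between 37.6 and 46.5 TPM, and AREG the highest in KYSE140, between 18.7 and 28.6 TPM. In TE5 the order continued with AREG (15.2 to 31.6 TPM), EREG (9.32 to 23.6), BTC (5.81 to 18.8) and HBEGF (6.09 to 9.75), each of which overlapped with the next. EGF (0.592 to 2.88 TPM) and EPGN (0.228 to 2.31) were the lowest there and overlapped. In KYSE140 cells TGFA (4.87 to 7.54 TPM) and HBEGF (1.36 to 2.65) followed AREG without overlap. EGF (0.539 to 0.970 TPM), BTC (0.335 to 1.31) and EPGN (0 to 0.595) overlapped, and EREG was between 0.0432 and 0.0719 TPM.

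**Figure D1:**
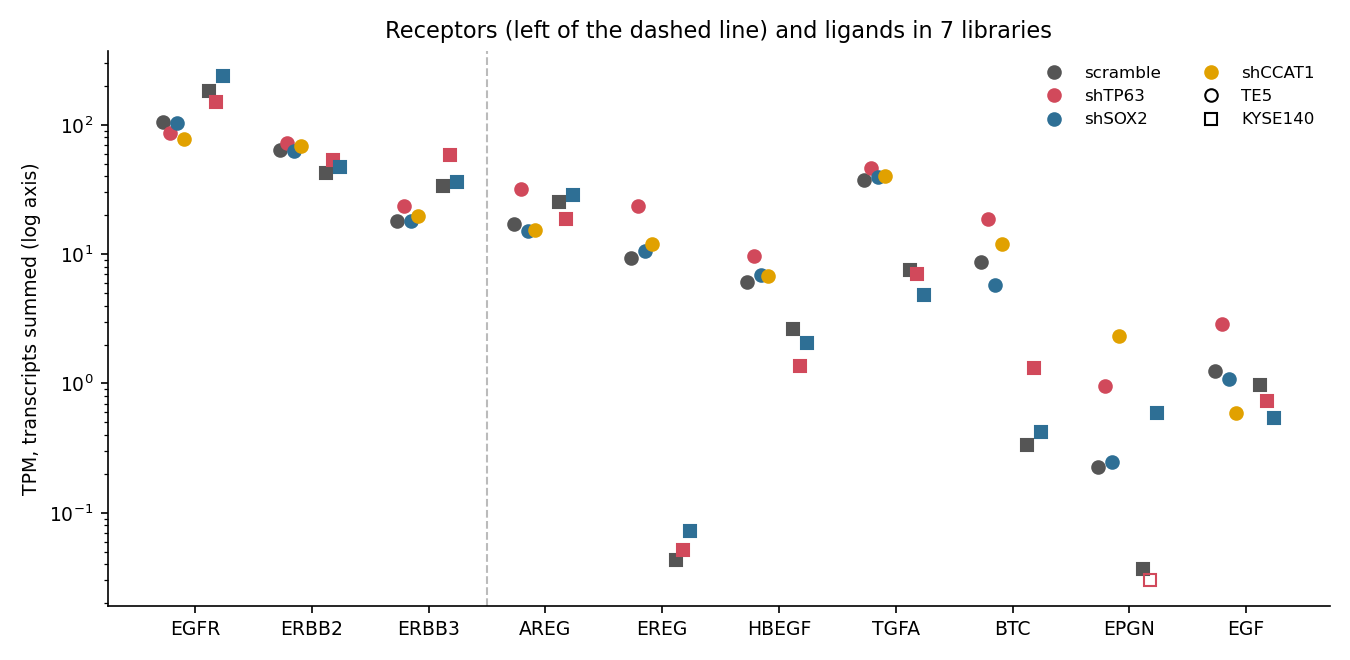
TPM of each member in each of the 7 libraries, on a log axis, with circles for TE5, squares for KYSE140 and a colour for each shRNA; the open square is EPGN in KYSE140 shTP63, which had 0 counts and is drawn near the foot of the axis. EGFR is the highest member in every library, and EREG lies above 9 TPM in TE5 and below 0.1 TPM in KYSE140 cells.

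**Figure D2:**
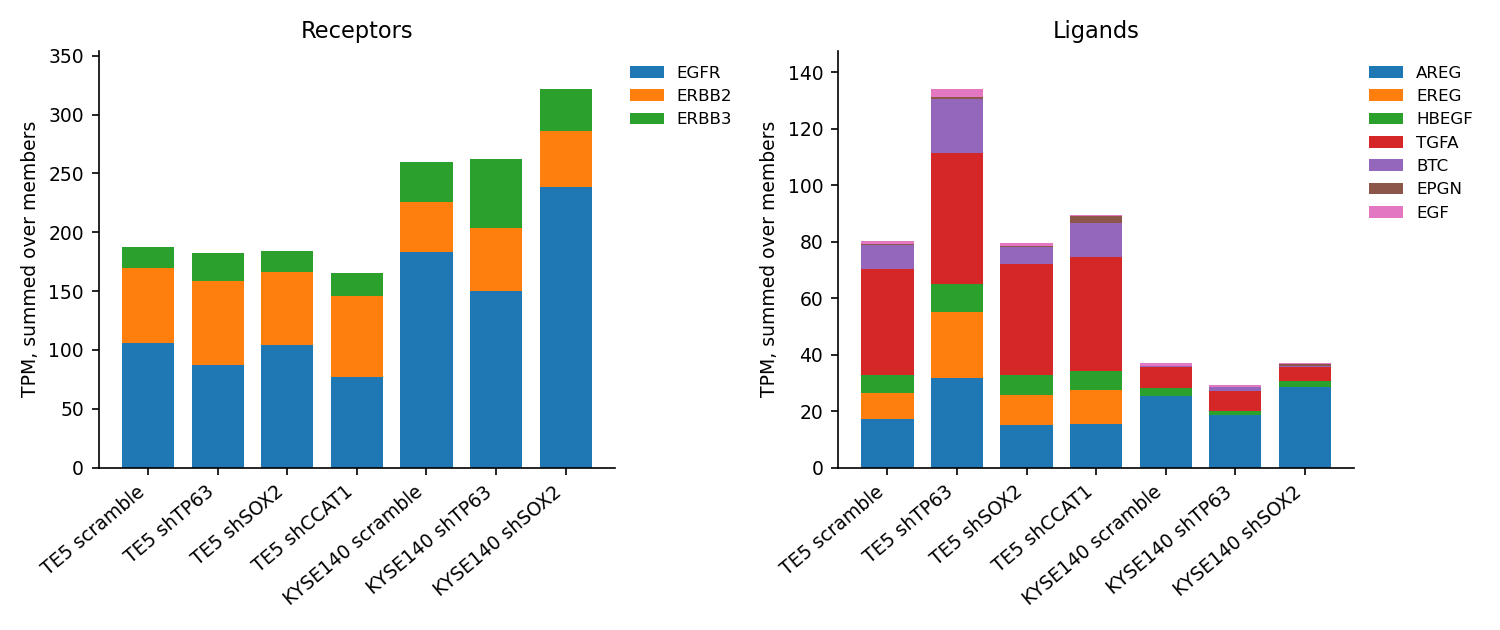
Summed TPM of the 3 receptors (left) and the 7 ligands (right) in each library, with a colour for each gene; bars start at 0. The receptor sums are higher in KYSE140 and the ligand sums higher in TE5, and the tallest ligand bar, 134 TPM, is TE5 shTP63.

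The difference between the lines was tested in edgeR's quasi-likelihood fit over the 6 libraries of scramble, shTP63 and shSOX2, with Benjamini-Hochberg adjustment over 23503 genes and a threshold of 0.1. In this contrast 66.8% of all genes passed, so that passing is common. Of the 10 members, 7 passed. EGFR was lower in TE5 by a log2 difference of -1.27 ± 0.13 (SE, adjusted p = 0.00015), with geometric means of 44589 and 109088 normalized counts. ERBB3 was also lower in TE5, at -1.39 ± 0.12 (adjusted p = 5.14e-05). The ligands that passed were all higher in TE5. They were EREG at 8.96 ± 0.39, BTC at 3.73 ± 0.23, TGFA at 2.41 ± 0.16, HBEGF at 1.66 ± 0.31 and EGF at 1.31 ± 0.28. ERBB2 (0.26, adjusted p = 0.118), AREG (-0.56, adjusted p = 0.171) and EPGN (2.26, adjusted p = 0.159) did not pass. DESeq2 called 7 members as well, against 53.2% of all genes. The scramble, shTP63 and shSOX2 libraries of a line served as its replicates, so these p-values do not measure a spread between cultures of a line. The lines were sequenced in different lanes, so line and lane cannot be told apart.

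EREG, which binds EGFR and ERBB4, shows the difference in counts. It had between 2320.5 and 5040 normalized counts in the 4 TE5 libraries, and between 3.7 and 8.7 in the 3 KYSE140 libraries. In KYSE140 cells 16.3% of these few counts in scramble, 56.1% in shSOX2 and 100% in shTP63 were on retained-intron transcripts, against 0.66% to 1.17% in TE5. BTC, a ligand of EGFR and ERBB4, had between 753.5 and 1974.5 normalized counts in TE5 and between 57.9 and 136.3 in KYSE140 cells.

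In the shTP63 libraries BTC and ERBB3 were higher and EGFR was lower than scramble in both lines. EREG was higher past the limit in TE5 and could not be measured in KYSE140 cells. AREG and HBEGF lay above scramble in TE5, within the limit, and below scramble in KYSE140, where HBEGF was past the limit. The log2 fold change here is log2((shRNA + 1)/(scramble + 1)) of counts scaled by edgeR's TMM factors, computed where either library of the pair reached 10 counts. A change past -1 or 1 was counted, and intervals are 95% intervals for counting error only. All 10 members met the count minimum in TE5 and 8 in KYSE140 cells, where EREG and EPGN did not. In TE5 4 members were higher past the limit and 0 lower, where 14.5% of all genes were higher and 5.53% lower. Of the 4, EPGN rests on 7 raw counts in scramble and 46 in shTP63. The count was 3 with a minimum of 50 counts or a loess correction for level. It was 5 in unscaled counts and with protein-coding or annotated transcripts only. In KYSE140 1 member was higher and 1 lower, where 8.45% of all genes were higher and 4.26% lower. The median of the members was 0.64 in TE5 and 0.03 in KYSE140 cells, beside 0.05 and 0.03 over all genes.

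EGFR had 47119 normalized counts in TE5 scramble and 36983 in TE5 shTP63, a log2 fold change of -0.35 (interval -0.37 to -0.33) or 78.5% of scramble. In KYSE140 it had 102529 in scramble and 83486 in shTP63, a log2 fold change of -0.30 (interval -0.31 to -0.28) or 81.4%. EGFR was lower than scramble in both lines. In unscaled counts the fold changes were 0.08 and 0.29, where the median of all genes was shifted by 0.43 and 0.59, so that EGFR stayed 0.40 and 0.33 below that median. The 10% of genes with the highest level had a median of -0.17 in TE5 shTP63, and after a loess correction for level the values of EGFR were -0.16 and -0.20. Squamous markers were lower beside EGFR, with a median log2 fold change of -0.61 in TE5 and -0.63 in KYSE140 over the 10 genes. That list holds TP63, the silenced gene, and not all of it was lower, since KRT17 was at 0.94 in TE5 and -0.66 in KYSE140. The markers summed to 2299 against 2622 TPM in TE5 and 13767 against 21031 TPM in KYSE140. Their part in the result was not tested. Nearly all EGFR counts, 96.2% to 98.8% per library, were on the full-length protein-coding transcript ENST00000275493.

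ERBB3 had 3641 normalized counts in TE5 scramble and 4722 in TE5 shTP63, and 8527 and 13137 in the KYSE140 libraries. Its log2 fold changes were 0.37 (interval 0.32 to 0.43) and 0.62 (interval 0.58 to 0.67). ERBB2 had 14610.5 and 13939 normalized counts in TE5 and 10093 and 12276 in KYSE140 cells. The log2 fold changes of ERBB2 were -0.07 and 0.28. In TE5 the sign for ERBB2 turned to 0.10 after the loess correction. It was also above 0 from TPM (0.16) and in unscaled counts (0.37), where the medians of all genes were 0.22 and 0.48, so that ERBB2 stayed below the median there. The main transcript ENST00000269571 held 51.5% of ERBB2 counts in TE5 scramble and 26.5% in TE5 shTP63, while ENST00000541774 held 10.2% and 27.2%. Kallisto splits reads between such overlapping transcripts by estimate. Between 16.5% and 32.3% of ERBB2 counts were on ENST00000540147, which was assigned to ERBB2 only through its neighbours in file order. With annotated transcripts only ERBB2 was at -0.20 in TE5 shTP63, and with protein-coding transcripts only at -0.28.

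BTC was the ligand with a difference past the limit in both lines. It had 962.7 normalized counts in TE5 scramble and 1974.5 in shTP63, a log2 fold change of 1.04 (interval 0.93 to 1.14). In KYSE140 it had 57.9 and 136.3, a log2 fold change of 1.22 (interval 0.73 to 1.71). The KYSE140 values rest on 42 and 149 raw counts. EGF, the founding ligand of the family, had 255.2 and 527.0 normalized counts in TE5, a log2 fold change of 1.04, and 93.7 and 160.1 in KYSE140, a log2 fold change of 0.77. The KYSE140 value of EGF turned to -0.41 when TPM was used in place of counts, where the main transcript ENST00000265171 held 79.7% of EGF counts in scramble and 94.8% in shTP63.

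EREG had 2320.5 normalized counts in TE5 scramble and 5040 in TE5 shTP63, a log2 fold change of 1.12 (interval 1.05 to 1.19). AREG had 956.3 and 1638.6 in TE5, a log2 fold change of 0.78, and 1721.5 and 1202.6 in KYSE140, a log2 fold change of -0.52. HBEGF had 766.6 and 1085.6 in TE5, a log2 fold change of 0.50, and 383.0 and 186.7 in KYSE140, a log2 fold change of -1.03 (interval -1.29 to -0.77). AREG and HBEGF were thus higher than scramble in TE5 and lower in KYSE140 cells, except that AREG in KYSE140 was at 0.07 in unscaled counts, below the shifted median. TGFA differed little, at 0.05 in TE5 and -0.22 in KYSE140. EPGN had 7 raw counts in TE5 scramble and 46 in TE5 shTP63, a log2 fold change of 2.14 (interval 1.06 to 3.22), and in KYSE140 1 and 0. Of the fibroblast markers, 3 of the 4 measured were also higher past the limit in TE5 shTP63, where the 6 genes summed to 27.1 TPM against 15.4 in scramble. The same number was higher past the limit in TE5 shSOX2, where the sum was 14.9 TPM. Endothelial markers summed to 9.31 TPM in TE5 shTP63 against 2.39 in scramble, and simple columnar markers to 3348 against 2576 TPM. By TPM the median log2 fold change of all genes in this pair was 0.22. Of the 6 simple columnar genes, 2 were higher and 1 lower past the limit in counts, beside 14.5% and 5.53% of all genes. KRT8 was at 0.55, KRT18 at 0.51 and KRT19 at -0.16. The part of these markers in the ligand values was not tested.

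Of the 31-base words in the AREG transcripts, 96.3% also occur in AREGB, an annotated copy of the gene at chr4:75480629-75490486 in hg19, so that the split of reads between them is uncertain. AREGB had between 113.3 and 165.9 normalized counts in TE5 and between 0.8 and 2.6 in KYSE140 cells. Summing both genes gave 0.73 in TE5 shTP63 and -0.52 in KYSE140 shTP63 for AREG. With annotated transcripts only AREG was at 1.00 in TE5 shTP63. The share of words found in other genes was at most 8.81% for the other members.

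**Figure D3:**
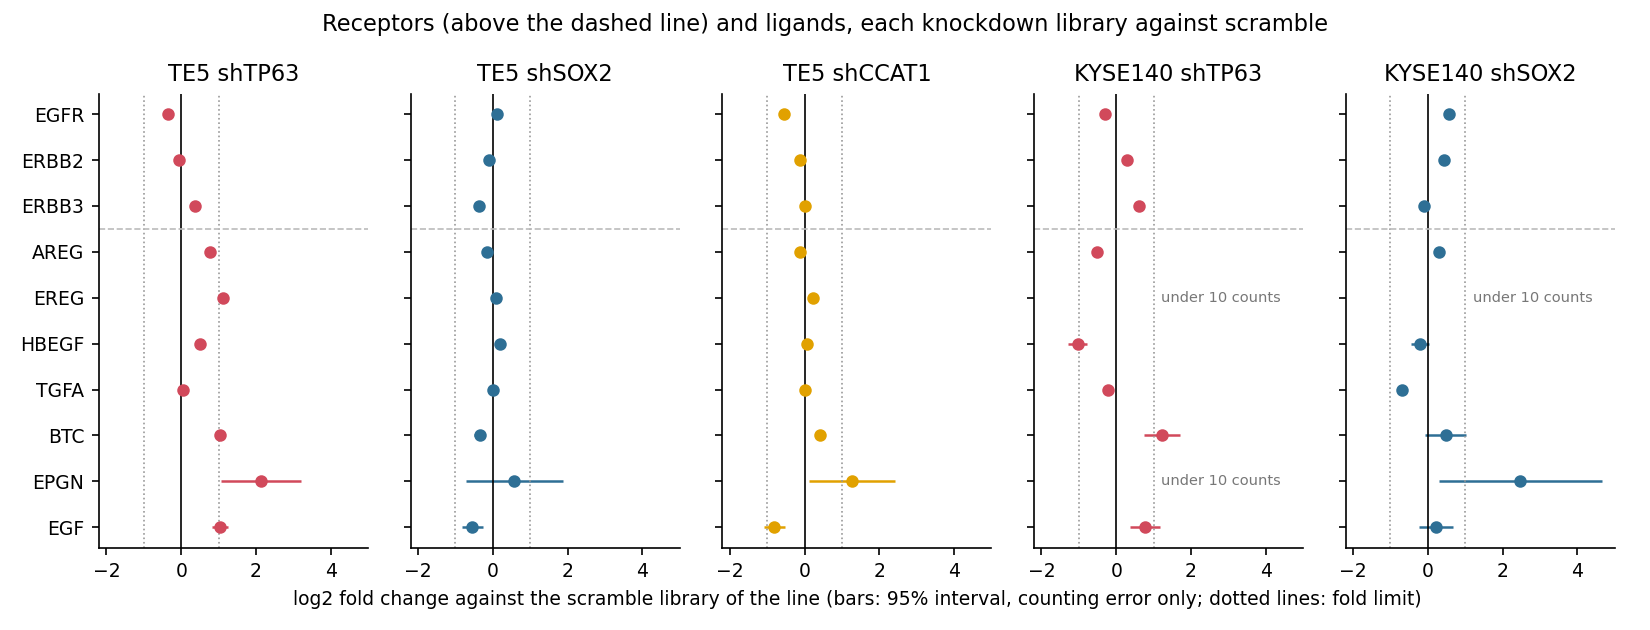
Log2 fold change of each member in each knockdown library against the scramble library of its line, with 95% intervals for counting error only and dotted lines at the limit of 1. BTC lies to the right of the limit in both shTP63 libraries, EGFR lies to the left of 0 in both, and HBEGF lies on opposite sides in the 2 lines.

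Low genes as a whole were higher in some knockdown libraries. In TE5 shTP63 the median log2 fold change of all genes ran from 1.02 in decile 1 of level, the lowest, to -0.17 in decile 10, and in TE5 shCCAT1 from 1.03 to -0.20. In KYSE140 shTP63 it ran from 0.77 to -0.05. BTC in TE5 lay in decile 7, where 2.66% of genes were higher past the limit, and EREG in decile 8, where 2.04% were. EPGN lay in decile 3, where 22.6% were. The part of this trend in the values of the members was not tested. After the loess correction BTC in TE5 shTP63 was at 1.15, EREG at 1.27, EGF at 0.98 and EPGN at 1.66. Over all genes, that correction moved the share of higher genes among those past the limit from 72.4% to 45.4% in TE5 shTP63, from 66.5% to 36.5% in TE5 shCCAT1 and from 66.5% to 40.6% in KYSE140 shTP63. In TE5 shSOX2 it moved from 56.4% to 44.7%, and in KYSE140 shSOX2 TPM moved it from 51.9% to 41.8%.

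**Figure D4:**
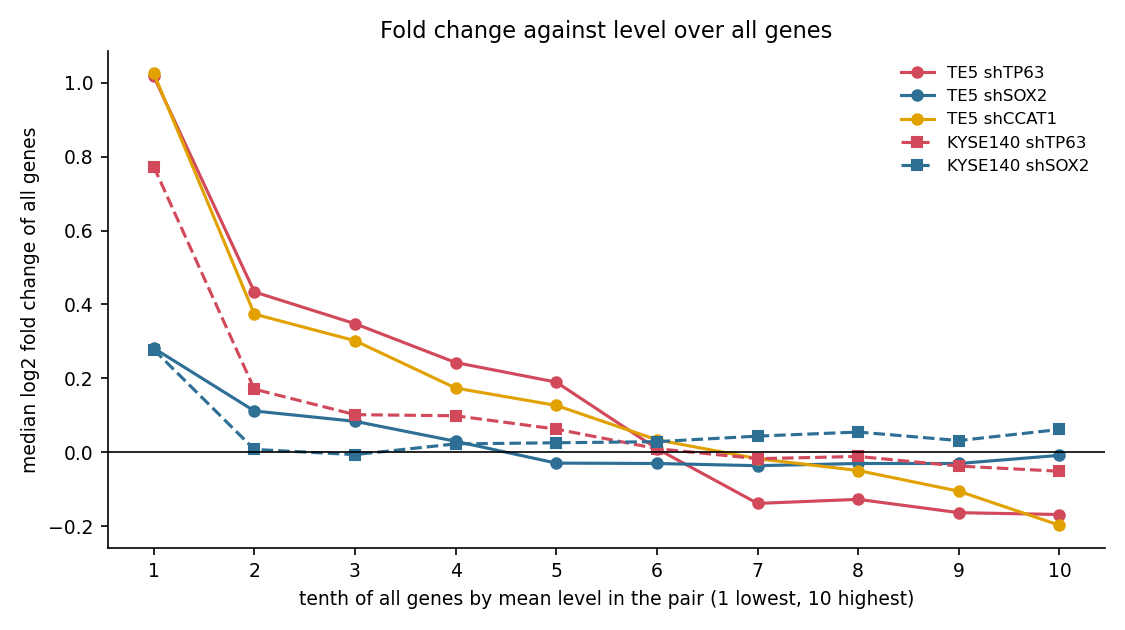
Median log2 fold change of all genes in each decile of mean level, for the 5 knockdown libraries (circles and full lines TE5, squares and dashed lines KYSE140). The shTP63 and TE5 shCCAT1 lines start between 0.77 and 1.03 in decile 1, and the shSOX2 lines near 0.28.

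Over both lines, edgeR's fit called 1.23% of all genes upon TP63 silencing and 0 of the 10 members. An unadjusted p under 0.05 was held by 4 members and by 3445 of all 23503 genes. BTC was at 1.13 ± 0.26 (SE, adjusted p = 0.133), EGF at 0.95 ± 0.34 (adjusted p = 0.269), ERBB3 at 0.52 ± 0.14 (adjusted p = 0.177) and EREG at 0.90 ± 0.38 (adjusted p = 0.332). The value of EREG rests on TE5, since KYSE140 had few counts, and DESeq2 gave 0.33 ± 0.86 (adjusted p = 0.876). EGFR was at -0.30 ± 0.16 (adjusted p = 0.435). DESeq2, which called 12.5% of genes, called BTC (adjusted p = 0.00898) and ERBB3 (adjusted p = 0.0683). These tests take the lines as replicates, with 2 residual degrees of freedom. Both tools also draw the spread of a gene towards that of all genes. The p-values therefore rest on that shared estimate as well as on the spread of the gene between lines.

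Upon SOX2 silencing all members stayed within the limit in TE5 cells, and EGFR was higher in KYSE140 cells. SOX2 itself was at 39.7% of scramble in TE5 shSOX2 but still at 76.5% in KYSE140 shSOX2. All 10 members met the count minimum in TE5 and 9 in KYSE140. In TE5 0 members were past the limit in either direction, where 6.17% of all genes were higher and 4.76% lower. In KYSE140 1 member was higher, EPGN, where 6.75% of all genes were higher and 6.24% lower. Its 2.48 (interval 0.30 to 4.65) rests on 1 raw count in scramble and 10 in shSOX2. EGFR had 50868 normalized counts in TE5 shSOX2 and 151654 in KYSE140 shSOX2. Its log2 fold change was 0.11 (interval 0.09 to 0.13) in TE5 and 0.56 (interval 0.55 to 0.58) in KYSE140, and the TE5 value was -0.02 from TPM. ERBB3 was at -0.37 in TE5 and -0.09 in KYSE140, but at -0.0028 and 0.11 from TPM. Squamous markers were higher beside EGFR in KYSE140 shSOX2, with a median of 0.58 and a sum of 32275 TPM against 21031 in scramble, and their part in the result was not tested. ERBB2 was at -0.10 and 0.42, the latter at 0.23 with annotated and 0.0034 with protein-coding transcripts only.

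Among the ligands, TGFA in KYSE140 had 1628 normalized counts in scramble and 1008 in shSOX2, a log2 fold change of -0.69 (interval -0.82 to -0.56). In TE5 it had 6855 and 6908, at 0.01. EGF was at -0.55 in TE5 and 0.21 (interval -0.24 to 0.67) in KYSE140, and BTC at -0.35 and 0.47 (interval -0.08 to 1.03). By TPM, EGF in KYSE140 was lower in shSOX2 than in scramble, at 0.539 against 0.970. AREG, EREG, HBEGF and, in TE5, EPGN lay between -0.21 and 0.58. edgeR called 0.162% of all genes upon SOX2 silencing and 0 members, and DESeq2 4.21% and 0 members. In edgeR 0 members had an unadjusted p under 0.05, beside 2167 of all 23503 genes. EGFR was at 0.33 ± 0.16 (SE, adjusted p = 0.61) and TGFA at -0.35 ± 0.19 (adjusted p = 0.655) in the edgeR fit. SOX2 itself missed the threshold there (-0.88 ± 0.22, adjusted p = 0.292).

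CCAT1 silencing, in TE5 cells only, came with the lowest EGFR level of the TE5 libraries. EGFR had 47119 normalized counts in scramble and 32348 in shCCAT1, a log2 fold change of -0.54 (interval -0.56 to -0.52) or 68.7% of scramble, and -0.27 after the loess correction. Squamous markers were lower beside it, with a median of -0.38 over the 10 genes, KRT5 and KRT6A past the limit and a sum of 1855 against 2622 TPM, and their part in the result was not tested. ERBB2 had 13326 normalized counts (-0.13) and ERBB3 3707 (0.03). Of the 10 members, 1 was higher past the limit and 0 lower, where 11.7% of all genes were higher and 5.86% lower. The 1 member was EPGN, with 7 raw counts in scramble and 24 in shCCAT1 (1.27, interval 0.12 to 2.42). BTC had 1271 normalized counts (0.40) and EGF 145.4 (-0.81, interval -1.08 to -0.53), while AREG, EREG, HBEGF and TGFA lay between -0.13 and 0.23. AREG turned from -0.13 to 0.31 with annotated transcripts only, since 26.4% of its counts in scramble and 0% in shCCAT1 were on a transcript assigned through its neighbours. Against TE5 shTP63, which shares its lane, EGFR in shCCAT1 differed by -0.19 (interval -0.21 to -0.17), and against TE5 shSOX2 by -0.65 (interval -0.67 to -0.63).

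The shTP63 and shSOX2 libraries of a line share a flow cell and a lane, so their difference does not rest on the scramble libraries. EGFR was lower and ERBB3 and BTC higher with TP63 silenced than with SOX2 silenced, in both lines. EGFR had 36983 normalized counts in TE5 shTP63 against 50868 in TE5 shSOX2, a log2 difference of -0.46 (interval -0.48 to -0.44). In KYSE140 it had 83486 against 151654, a log2 difference of -0.86 (interval -0.87 to -0.85). ERBB3 had 4722 against 2809 in TE5 (0.75) and 13137 against 7997 in KYSE140 (0.72). By TPM the ERBB3 difference was smaller in TE5, at 23.4 against 18.0, than in KYSE140, at 58.8 against 36.3. BTC had 1974.5 against 753.5 in TE5 (1.39) and 136.3 against 80.7 in KYSE140 (0.75, interval 0.33 to 1.17). EGF was also higher in both, by 1.59 and 0.55. AREG and HBEGF differed in sign between the lines again, at 0.94 and 0.31 in TE5 and -0.82 and -0.82 in KYSE140.

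In the edgeR fit this contrast called 4.91% of all genes and 2 of the 10 members. ERBB3 was higher by 0.77 ± 0.14 (SE, adjusted p = 0.0494), in 2 of 2 lines. BTC was higher by 1.14 ± 0.27 (adjusted p = 0.0855), in 2 of 2 lines. In the same contrast 4 of the 10 squamous markers were lower, with a median of -0.77 over the list. They were KRT5, DSC3, PKP1 and TP63, which is itself the silenced gene and so was lower by design. Of 4 simple columnar markers tested 1 passed, KRT8, a keratin of simple epithelium, higher by 0.78 ± 0.16 (adjusted p = 0.0603). The median of that list was 0.15, with KRT18 at 0.43 (adjusted p = 0.219) and KRT19 at -0.14 (adjusted p = 0.681). The part of these markers in the values of ERBB3 and BTC was not tested. EGFR just missed the threshold, at -0.63 ± 0.16 (adjusted p = 0.104), as did EGF at 1.12 ± 0.34 (adjusted p = 0.157). DESeq2 called 15.6% of genes and 4 members, with EGFR (adjusted p = 0.00949) and EGF (adjusted p = 0.0578) beside the others. BTC missed the threshold (adjusted p = 0.136) when transcripts assigned to no gene were kept as features of their own. TP63 silencing differed from SOX2 silencing in TP63 itself by -2.19 ± 0.14 (adjusted p = 0.0078).

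**Figure D5:**
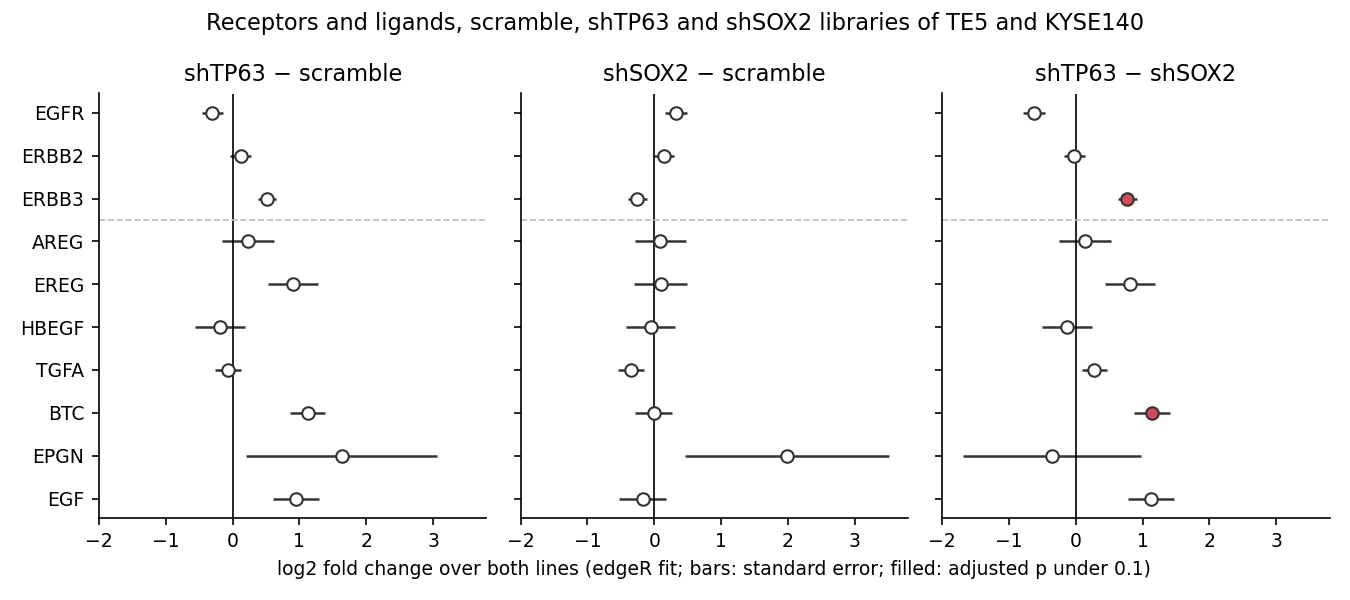
Log2 fold change of each member over both lines in edgeR's fit, for shTP63 against scramble, shSOX2 against scramble and shTP63 against shSOX2, with standard errors; filled points have an adjusted p under 0.1. The filled points are ERBB3 and BTC in the right panel.

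Other parts of the pathway were read from lists of genes. Of the other ERBB receptor and ligand genes, 4 were tested over both lines. ERBB4, the remaining receptor of the family, was near the detection limit, with 25.9 normalized counts in TE5 scramble, 96.8 in shTP63, 10.3 in shSOX2 and 4.0 in shCCAT1, and at most 2.7 in KYSE140 cells. It was higher with TP63 than with SOX2 silenced (3.27 ± 0.77, adjusted p = 0.088), a value that rests on TE5, since KYSE140 had few counts. ERBB4 was the 1 gene of the list to pass in edgeR, while DESeq2 called 0. Over all genes that contrast called 4.91% in edgeR and 15.6% in DESeq2. NRG1, a ligand of ERBB3 and ERBB4, had 5480 normalized counts in TE5 scramble and between 3132 and 4444 in the knockdown libraries, and 1889 in KYSE140 scramble and 1573 and 1385 in shTP63 and shSOX2. Its log2 fold changes lay between -0.81 and -0.26 in all 5 pairs, and it did not pass in the edgeR fit (adjusted p = 0.287 for TP63 and 0.615 for SOX2 silencing).

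Among 6 genes of ligand shedding and trafficking, edgeR called 0 upon either silencing. An unadjusted p under 0.05 was held by 2 upon TP63 and 1 upon SOX2 silencing, beside 3445 and 2167 of all 23503 genes. DESeq2 called 1 upon TP63 silencing, where it called 12.5% of all genes. That gene was TIMP3, an inhibitor of metalloproteases, which in edgeR was lower with TP63 than with SOX2 silenced (-1.69 ± 0.26, adjusted p = 0.033). ADAM17, the main sheddase of TGFA and AREG, had 3951 normalized counts in TE5 scramble and 4988 in shTP63, and 7787 and 9427 in KYSE140 (0.34 and 0.28). Of 26 adaptors and signal transducers, 2 fell upon TP63 silencing in edgeR, GRB2 and MAP2K1, and 0 rose, where 1.23% of all genes passed. The median of the 26 was -0.16 beside 0.04 over all genes. DESeq2 called 8 lower and 1 higher, where it called 12.5% of all genes. MAP2K1, the kinase MEK1, had 11720 normalized counts in TE5 scramble and 5308 in shTP63, and 12842 and 7683 in KYSE140 (-0.92 ± 0.16, adjusted p = 0.091). Upon SOX2 silencing edgeR and DESeq2 both called 0 of the 26, with 4 at an unadjusted p under 0.05 in edgeR.

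Of 15 receptor attenuators, genes that restrain or degrade the receptors, edgeR called 0 upon either silencing. An unadjusted p under 0.05 was held by 5 upon TP63 and 2 upon SOX2 silencing, beside 3445 and 2167 of all 23503 genes. DESeq2 called 2 upon TP63 silencing, ERRFI1 and PTPN1, where it called 12.5% of all genes. ERRFI1, an inhibitor of the EGFR kinase, had 3571 normalized counts in TE5 scramble and 7471 in shTP63, and 3933 and 5733 in KYSE140 (1.06 and 0.54, edgeR adjusted p = 0.147). CBLB, a ubiquitin ligase of receptors, was at 1.03 in TE5 shSOX2 and -1.05 in TE5 shCCAT1. Of 19 response and feedback genes of ERK signalling, edgeR called 0 upon either silencing, with 4 at an unadjusted p under 0.05 each time. DESeq2 called 3 upon TP63 silencing and 1 upon SOX2 silencing, where it called 12.5% and 4.21% of all genes. With TP63 silenced, 3 were lower than with SOX2 silenced in edgeR, FOSL1, ETV4 and MYC, where 4.91% of all genes passed. MYC had 11534 normalized counts in TE5 scramble, 3337 in shTP63, 14795 in shSOX2 and 8844 in shCCAT1, and 11323, 6371 and 10362 in the KYSE140 libraries. Of 16 other receptor tyrosine kinases tested, 1 fell upon TP63 silencing in edgeR, MET, and 2 were lower with TP63 than with SOX2 silenced, MET and FGFR3. Over all genes these contrasts called 1.23% and 4.91%.

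The patterns of the members were compared by the root mean square difference of log2 CPM, centred within each line, over the 7 libraries, among 12247 genes whose counts reached 100 everywhere. The genes most like EGFR were EPHB4 (0.032), ADAT3 (0.040), APOBEC3C (0.070), CTSB (0.070) and RIPK4 (0.071). EPHB4 encodes a receptor tyrosine kinase, and its log2 fold changes were -0.38, 0.11 and -0.50 in TE5 and -0.22 and 0.55 in KYSE140, in the order shTP63, shSOX2 and shCCAT1. Of the members, EREG, BTC, EPGN and EGF did not reach that minimum and were not compared. Among the others, none was near EGFR. The nearest, ERBB2, ranked 3407 (0.27). AREG and HBEGF were the closest pair of the members compared (0.24), and ranked 165 and 127 in each other's order. These values describe 7 libraries that share scramble controls.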

How the data were processed

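RNA-Seq libraries of TE5 (4) and KYSE140 (3) were analysed, with groups taken from the sample titles. The authors ran Kallisto on 100 bp paired-end reads against Ensembl transcripts of hg19. The deposited tables give an effective length, a TPM and an estimated count per transcript, and the labels also name DESeq2. Estimated counts are not scaled between libraries, and TPM is scaled for transcript length and library total. Versions of these tools are not given in the sources used here. The effective lengths were not used.

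Transcripts were assigned to genes with GENCODE 44 on hg19 (182863 transcripts, 93.6% of counts). A further 7011 (3.72%) with no entry there were assigned through neighbouring transcripts of one gene in file order, a rule that was right for 99.7% of 105851 annotated transcripts. The remaining 6480 (2.70%) were left out. Counts were summed to genes and scaled with TMM. Pairs of libraries have no test. For both lines together, gene sums were rounded and tested with edgeR 4.0.16 (R 4.3.3) by the quasi-likelihood test over 6 libraries, with cell line as block, the filterByExpr filter (23503 genes) and a Benjamini-Hochberg adjusted p under 0.1. DESeq2 1.42.0 was an alternative. The pair values and the edgeR step were tested on simulated data. Python 3.11.15 with numpy 2.4.6, pandas 2.3.3 and matplotlib 3.10.9 was used.

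The members and lists were chosen with earlier results of these data known. Besides the members and the silenced genes, the text names of each list up to 4 genes with the largest mean change and up to 2 with the largest change upon CCAT1 silencing, among genes whose counts reached 100 everywhere, a few genes whose role pairs with a member, and genes behind a count of 5 or fewer, which were chosen after their values were seen. Nothing in the labels says that libraries came from separate cultures. Alternatives of scaling, filter, pseudocount, transcripts, test and samples were computed.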

Additional observations from a re-analysis of the deposited data

Results flagged for a closer look

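The log2 fold change against scramble pointed one way in TE5 and the other way in KYSE140 cells for 4 of the 8 members measured in both lines upon TP63 silencing and for 6 of 9 upon SOX2 silencing. Over all genes measured in both lines, 34.9% and 39.8% did so. With 1 library per shRNA and line, the difference between the lines was not tested for any of them, and several values lie close to 0. Upon TP63 silencing, AREG was at 0.78 in TE5 and -0.52 in KYSE140, HBEGF at 0.50 and -1.03, ERBB2 at -0.068 and 0.28, and TGFA at 0.053 and -0.22. Upon SOX2 silencing, ERBB2 was at -0.10 in TE5 and 0.42 in KYSE140, TGFA at 0.011 and -0.69, and AREG at -0.16 and 0.30. HBEGF was at 0.19 and -0.21, BTC at -0.35 and 0.47, and EGF at -0.55 and 0.21. In KYSE140 shSOX2 the intervals of HBEGF (-0.46 to 0.03), BTC (-0.08 to 1.03) and EGF (-0.24 to 0.67) included 0. By TPM, EGF was lower there than in scramble, at 0.539 against 0.970. Upon TP63 silencing ERBB2 in TE5 turned to 0.10 after the loess correction, the same sign as in KYSE140.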

How the results depend on the processing

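Each library is the 1 sample of its shRNA and line, so a pair has no error beyond counting, and EPGN (at most 46 counts) and EREG in KYSE140 are limited by depth. The fit pairs the conditions by cell line, which is its block, and the labels give no other replicate numbers that pair samples. Of 73 counts of members past a threshold under an alternative, 59 stayed within 1.5 times. In TE5 shCCAT1 the count of 1 went to 2 with TPM and to 0 with loess scaling, a pseudocount of 10 or a minimum of 50 counts. In KYSE140 shTP63 the count of 2 went to 1 with TPM or a pseudocount of 10 and to 4 with a minimum of 1 count. In KYSE140 shSOX2 the count of 1 went to 0 with a pseudocount of 10 or a minimum of 50 counts. For TP63 silencing in the edgeR fit the count of 0 went to 2 with DESeq2 and to 1 with no filter. For TP63 against SOX2 silencing the count of 2 went to 4 with DESeq2 or no filter and to 1 with unassigned transcripts kept. EGFR passed in that contrast with DESeq2 size factors (adjusted p = 0.0957) and with all 7 libraries (adjusted p = 0.0860) in edgeR. The count for the lines lay between 7 and 8 with 1 condition left out. Over all genes, edgeR called 59 higher and 229 lower upon TP63 silencing, 0 and 0 with unassigned transcripts kept, and 494 and 1354 with DESeq2. For SOX2 silencing the counts were 6 and 32, 0 and 14, and 199 and 424, and for TP63 against SOX2 silencing 504 and 651, 230 and 351, and 973 and 1566. With no filter they were 482 and 937, 138 and 347, and 1060 and 1161 in the same order, and without the cell line block 0 and 0 for TP63 and for SOX2 silencing.

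Leaving out either line, which leaves 1 pair and no test, gave for TP63 silencing -0.068 to 0.28 for ERBB2, -0.52 to 0.78 for AREG, -1.03 to 0.50 for HBEGF and -0.22 to 0.053 for TGFA. For SOX2 silencing it gave -0.10 to 0.42 for ERBB2, -0.16 to 0.30 for AREG, -0.21 to 0.19 for HBEGF, -0.69 to 0.011 for TGFA, -0.35 to 0.47 for BTC and -0.55 to 0.21 for EGF. Without the cell line block, HBEGF turned to 0.18 and TGFA to 0.043 upon TP63 silencing and HBEGF to 0.058 upon SOX2 silencing. With annotated transcripts only, ERBB2 turned to 0.021 between TP63 and SOX2 silencing. The causes were not tested.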
